A study of Mus musculus with 8 samples.

Results

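Wnt signalling was described in whole skin through 43 genes: the Wnt ligands, their Frizzled and Lrp receptors, the secreted inhibitors of the Dkk, Sfrp and Wif families, the feedback gene Axin2 and the nuclear factors Lef1 and Tcf7. The members were taken by symbol from the 56748 genes of the deposited count table: 19 ligands, 12 receptors (Fzd1 to Fzd10, Lrp5 and Lrp6), 9 secreted inhibitors and 3 nuclear or feedback genes. The rule itself uses symbols and no measured value, but it was set with earlier results of these data known. RNA-seq had been run on whole skin of 8 male mice aged 35 weeks, 5 wild-type (NPY +/+) and 3 NPY-tet (NPY tet/tet), siblings of the strain B6;129S4-Npytm2Rpa/J, none of them given a treatment. In NPY-tet mice both copies of Npy, the gene of the transmitter peptide neuropeptide Y, are the tetracycline-regulated allele; the labels name neither the cells in which it is driven nor any use of doxycycline. Mice are called by genotype and replicate number, and each library is 1 mouse.

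Wnt proteins are secreted lipid-modified ligands that bind a Frizzled receptor, and with Lrp5 or Lrp6 as co-receptor they stop the destruction of beta-catenin, which then enters the nucleus and acts with Tcf7, Lef1 and related DNA-binding factors. Axin2 is a target of the pathway and a part of the complex that destroys beta-catenin, so it acts as negative feedback. Dkk proteins bind the Lrp co-receptors, Sfrp proteins and Wif1 bind the ligands themselves, and other ligands such as Wnt5a act largely without beta-catenin. In skin the pathway is known for starting hair follicles, for the growth phase of the hair cycle and for the differentiation of hair shaft cells.

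The libraries held 31370433 to 47495565 counts. Npy had 5 to 15 counts in the wild-type and 10394 to 11864 counts in the NPY-tet libraries, as the labels imply. The libraries differed in 2 further ways that the labels do not give. Wild-type mice 1, 2, 3 and 5 and NPY-tet mouse 1 gave libraries with 6.44% to 8.07% of reads in ribosomal RNA genes (rRNA-rich), whereas wild-type mouse 4 and NPY-tet mice 2 and 3 gave libraries with 0.0388% to 0.0754% (rRNA-poor). The summed CPM (counts scaled to a common library size with TMM factors) was taken over 23 hair shaft genes, a list that also holds inner root sheath genes. It ran from 12.0 to 8202 in wild-type mice and from 444 to 5130 in those of the NPY-tet group. NPY-tet mouse 1 also stood apart in the 10 dermal fibroblast markers, whose summed CPM was 2826 there and 10968 to 25957 in the other mice.

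Upstream sequence is shown for 4 members. Lef1 and Wif1 had the steepest called slopes on hair shaft genes, and Sfrp2 had the largest genotype difference. Wnt11 is the ligand that DESeq2, but not edgeR, called against the same genes. Each is the 250 bases before an annotated RefSeq start on GRCm38.p6, 5′ to 3′ on the gene's strand, with the searched TCF and LEF motif in capitals (CTTTGAT or CTTTGAA on either strand, read as ATCAAAG or TTCAAAG on the opposite strand).
Lef1, chr3:131110047-131110296, plus strand: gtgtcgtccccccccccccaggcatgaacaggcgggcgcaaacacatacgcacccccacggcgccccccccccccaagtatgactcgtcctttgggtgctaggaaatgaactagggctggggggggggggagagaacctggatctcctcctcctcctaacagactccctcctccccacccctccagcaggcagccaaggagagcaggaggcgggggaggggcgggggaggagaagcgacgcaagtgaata
Wif1, chr10:121033754-121034003, plus strand: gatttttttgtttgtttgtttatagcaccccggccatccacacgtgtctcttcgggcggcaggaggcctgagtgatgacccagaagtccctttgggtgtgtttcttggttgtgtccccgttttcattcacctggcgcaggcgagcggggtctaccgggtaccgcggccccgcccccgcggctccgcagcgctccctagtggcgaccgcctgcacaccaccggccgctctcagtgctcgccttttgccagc
Sfrp2, chr3:83766071-83766320, plus strand: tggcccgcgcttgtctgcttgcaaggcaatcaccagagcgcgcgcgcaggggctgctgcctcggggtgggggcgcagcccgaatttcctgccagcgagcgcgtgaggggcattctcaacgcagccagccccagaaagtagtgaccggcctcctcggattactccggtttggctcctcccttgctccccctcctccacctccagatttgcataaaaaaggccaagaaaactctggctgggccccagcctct
Wnt11, chr7:98834862-98835111, plus strand: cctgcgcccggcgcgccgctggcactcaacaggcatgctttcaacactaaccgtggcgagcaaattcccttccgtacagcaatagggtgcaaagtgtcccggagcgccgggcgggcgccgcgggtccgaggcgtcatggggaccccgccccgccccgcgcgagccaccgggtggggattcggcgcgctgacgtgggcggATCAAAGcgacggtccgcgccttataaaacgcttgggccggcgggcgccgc
Of the 4 windows shown that of Wnt11 held the motif, as ATCAAAG, 51 bases before the start. RefSeq gives 2 starts for Wnt11, and the window of the other start holds no match. Lef1 has 4 windows, of which 1 is shown, and none of the 4 holds a match. RefSeq gave a window for 29 of the 43 members, 36 windows in all, of which 3 (8.33%) held the motif, against 7.48% of all 32851 windows. Besides Wnt11 these were windows of Dkk1, which had 0 counts, and of Wnt5b, whose slope on hair shaft genes was 0.021 (SE 0.036). The windows of Fzd1 and Fzd5, which edgeR called against those genes, are not shown and hold no match. The share among the members was thus close to that among all promoters, and a window with no match says only that these letters are not in it.

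Of the 43 members, 38 passed the filter on low counts and were tested among 18495 genes, and 31 reached a mean of at least 1 FPKM (fragments scaled to gene length and library size, a level that allows comparison between genes) in a genotype. Those 31 were 11 of the 19 ligands, 11 of the 12 receptors, 7 of the 9 inhibitors and 2 of the 3 nuclear or feedback genes. The highest mean level over the 8 mice was that of the receptor Fzd4, at 39.0 FPKM, followed by the inhibitor Sfrp5 at 29.4 and then by the ligand Wnt7b at 20.3. Fzd1 (20.1 FPKM) and Fzd7 (19.4 FPKM) came next, and their order against Wnt7b differed between single mice. In wild-type mouse 5 Fzd1 (28.7 FPKM) and Fzd7 (21.4 FPKM) exceeded Wnt7b (19.3 FPKM). In wild-type mouse 4 both (18.1 and 14.7 FPKM) were below it (29.7 FPKM). The SD over 5 wild-type mice was 5.25 FPKM for Wnt7b, 5.54 for Fzd1 and 3.16 for Fzd7. Wnt10a and Fzd10 were both at 16.4 FPKM. Lrp5 (14.1), Sfrp1 (13.3), Wnt4 (12.4) and Dkk3 (11.4 FPKM) completed the highest 11. The order of Fzd4 and Sfrp5 differed between single mice: Sfrp5 exceeded Fzd4 in NPY-tet mouse 1 (43.2 against 32.8 FPKM) and NPY-tet mouse 3 (50.3 against 39.0 FPKM) and was below it in the other 6.

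The summed level of all members was 290 to 328 FPKM in wild-type and 285 to 334 FPKM in NPY-tet mice. Receptors made up the largest share, with 126 to 164 FPKM in wild-type and 134 to 136 in NPY-tet mice. Ligands summed to 81.1 to 108 FPKM in wild-type and 63.5 to 99.6 in NPY-tet mice, and the inhibitors to 55.6 to 82.0 and 60.9 to 86.0 FPKM. The ranges of the genotypes overlapped for each of these sums.

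**Figure D1:**
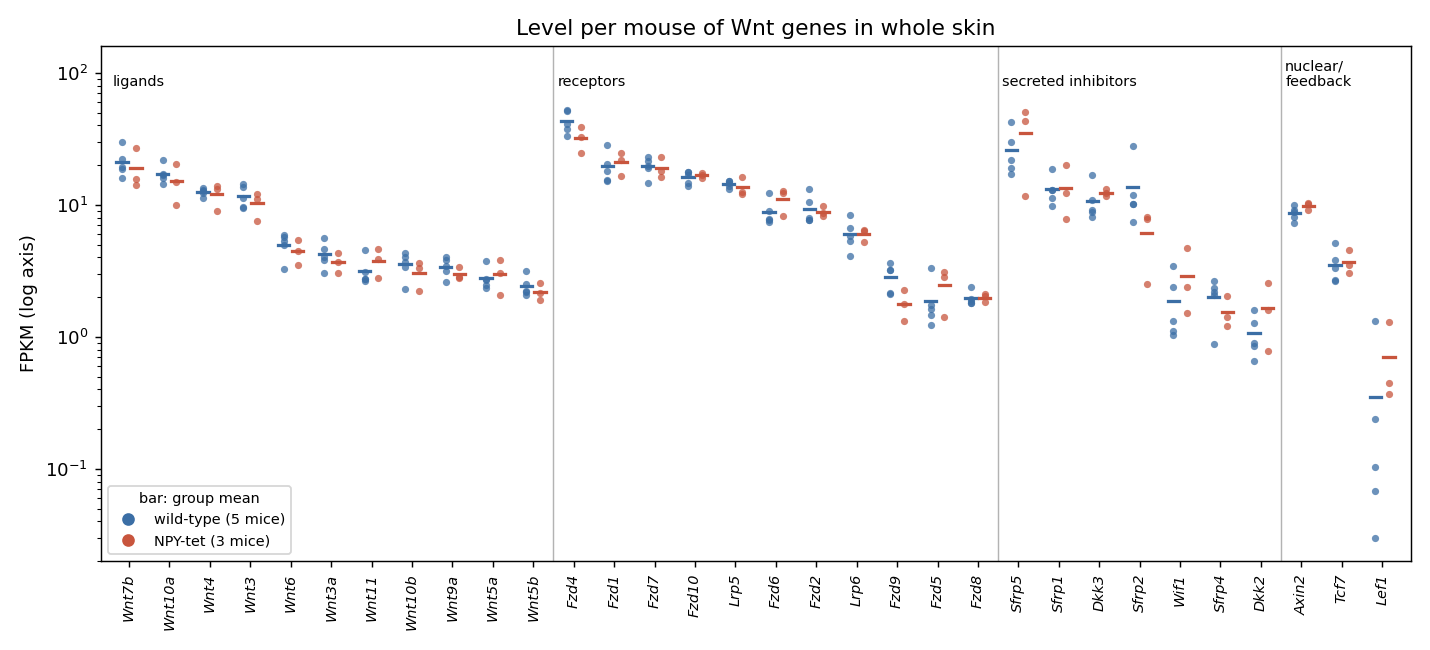
Level in FPKM (log axis) of the 31 members at 1 FPKM or more and of Lef1, with points for 5 wild-type and 3 NPY-tet mice and bars for the group means. Fzd4, Sfrp5 and Wnt7b lead with means of 39.0, 29.4 and 20.3 FPKM over 8 mice, and the points of the genotypes overlap for the tested members.

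Dkk1, an inhibitor that binds the Lrp co-receptors, had 0 of 289847188 counts over the 8 libraries, which allows up to 0.0104 CPM. Its relative Dkk4 had 0 to 4 counts per library. The ligands Wnt1 and Wnt8b had 0 to 4 and 0 to 11 counts. Wnt8a had 0, 0, 0, 0 and 1 counts in wild-type mice 1 to 5 and 3, 29 and 1 in NPY-tet mice 1 to 3, so that 1 mouse held most of its reads. These 5 members were not tested.

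The question put by the design, whether the NPY-tet genotype goes with a difference in these genes, was tested with edgeR's quasi-likelihood test on the whole table, with p-values adjusted over the 18495 genes by the Benjamini-Hochberg method. None of the 38 tested members passed an adjusted p of 0.05 (0.00541% of all genes tested did, which is Npy alone), and their adjusted p-values ran from 0.791 to 0.998. At an unadjusted p under 0.05 there was 1 member, the receptor Fzd9, against 5.98% of all genes tested. DESeq2 gave no p-value for Lef1 and called 0 of the other tested members at an adjusted p of 0.05 (0.368% of all genes). It gave 3 at an unadjusted p under 0.05, a level that 1381 of all 18495 genes tested reached. The edgeR count at an unadjusted p under 0.05 moved with single mice. It was 13 without wild-type mouse 5, 6 without NPY-tet mouse 3, 2 without wild-type mouse 4 and 0 without NPY-tet mouse 1. The share of all genes at that level is not given for these fits, so these counts are no result about the members. No member had every NPY-tet mouse above or below every wild-type mouse, against 3.78% of all genes tested. The members' median log2 fold change of NPY-tet over wild-type was -0.02, beside 0.00 over all genes, with 18 members at a positive and 20 at a negative value. By role, 12 of 16 ligands had a negative value (median -0.17), 6 of 12 receptors (median 0.01), 2 of 7 inhibitors (median 0.20) and 0 of the 3 nuclear or feedback genes (median 0.18).

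**Figure D2:**
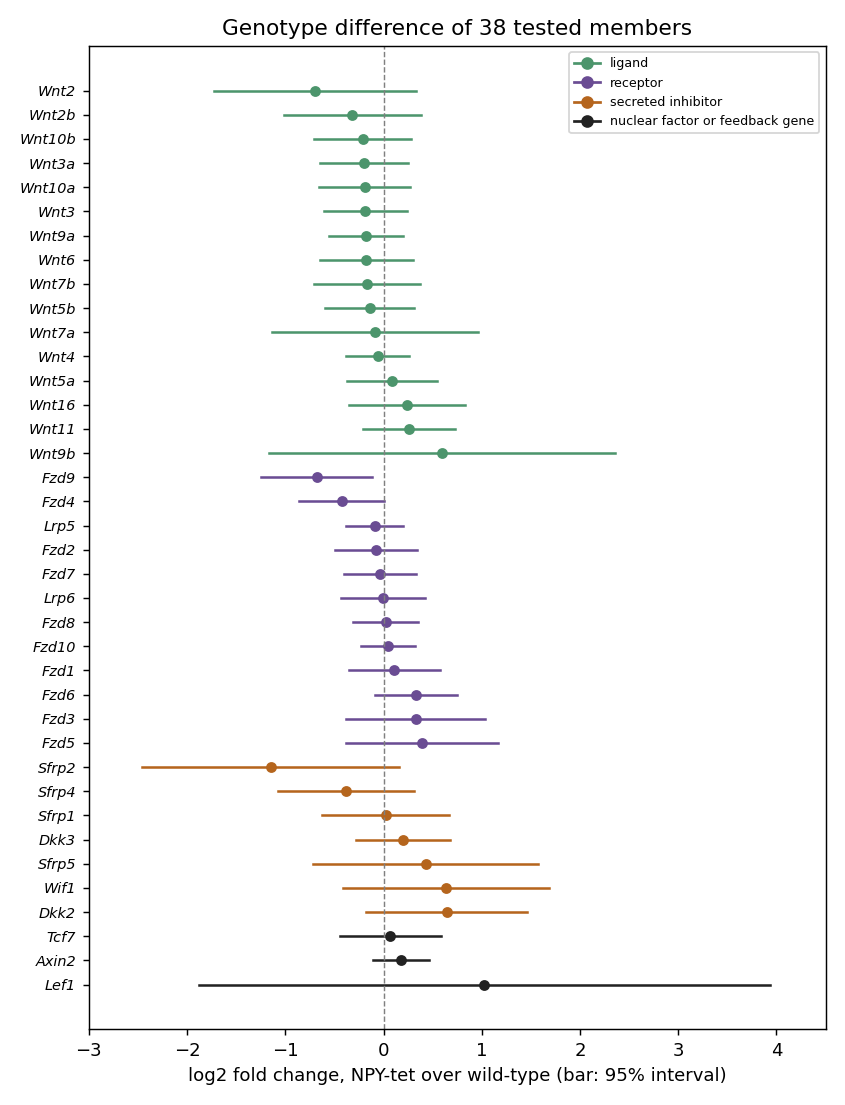
Log2 fold change of NPY-tet over wild-type for the 38 tested members with its 95% interval (bars), grouped by role. The intervals of 37 members include 0, and the interval of Fzd9, from -1.25 to -0.12, does not.

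Among the ligands, Wnt7b, Wnt10a, Wnt4 and Wnt3, which are known from the epidermis and the hair follicle, had the highest levels. Wnt7b measured 111, 79.3, 93.3, 147 and 95.1 CPM in wild-type mice 1 to 5 and 69.6, 77.6 and 134 CPM in NPY-tet mice 1 to 3. Wnt10a, a ligand needed for tooth and hair development, measured 43.4, 36.3, 39.9, 54.2 and 41.5 CPM in wild-type and 24.9, 37.1 and 51.0 CPM in NPY-tet mice. NPY-tet mouse 1 was the lowest of the 8 for both, and wild-type mouse 4 the highest, with overlap between the genotypes. Their log2 fold changes were -0.17 (SE 0.24) and -0.19 (SE 0.21).

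Wnt4 measured 55.7, 54.0, 56.7, 52.3 and 47.9 CPM in wild-type and 38.4, 56.3 and 58.8 CPM in NPY-tet mice. Wnt3, a beta-catenin ligand of the epidermis, measured 43.3, 35.2, 29.5, 44.4 and 29.7 CPM in wild-type and 23.7, 34.7 and 37.8 CPM in NPY-tet mice. For both, NPY-tet mouse 1 again had the lowest value and the other NPY-tet mice lay within or just above the wild-type range. Wnt6 measured 13.2, 10.96, 12.6, 11.7 and 7.16 CPM in wild-type and 7.73, 9.86 and 12.0 CPM in NPY-tet mice. Wnt3a measured 13.0, 11.2, 10.7, 15.6 and 8.53 CPM in wild-type and 8.53, 10.4 and 12.0 CPM in NPY-tet mice. Wnt10b, a ligand linked to the start of hair growth, measured 15.1, 12.8, 11.6, 13.8 and 7.89 CPM in wild-type and 7.68, 12.5 and 11.5 CPM in NPY-tet mice. In these 3 ligands wild-type mouse 5 and NPY-tet mouse 1 were low together, at 7.16 to 8.53 CPM, and their log2 fold changes were -0.17, -0.20 and -0.21.

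Wnt5a, a ligand that acts largely without beta-catenin, measured 19.8, 21.4, 18.5, 21.7 and 29.8 CPM in wild-type and 16.3, 30.2 and 24.2 CPM in NPY-tet mice. Its relative Wnt5b measured 8.63, 5.87, 5.53, 6.74 and 5.92 CPM in wild-type and 5.82, 6.83 and 5.13 CPM in NPY-tet mice. Wnt5b overlaps Fbxl14 on the opposite strand, and the libraries are non-directional, so reads of this overlap cannot be told apart between the genes. Wnt11, which like Wnt5a is tied to signalling without beta-catenin, measured 13.1, 11.1, 11.5, 11.4 and 19.0 CPM in wild-type and 16.4, 19.4 and 11.8 CPM in NPY-tet mice. Wnt9a measured 11.7, 12.8, 13.5, 8.78 and 10.6 CPM in wild-type and 11.4, 9.59 and 9.43 CPM in NPY-tet mice. Wild-type mouse 5 and NPY-tet mouse 2 were the highest for Wnt5a and Wnt11, whereas Wnt9a and Wnt5b did not have that order. The genotypes overlapped in all 4, with log2 fold changes of 0.09, -0.14, 0.26 and -0.18. The remaining tested ligands, Wnt2, Wnt2b, Wnt16, Wnt7a and Wnt9b, were under 1 FPKM on average, and their log2 fold changes ran from -0.70 for Wnt2 (SE 0.47) to 0.60 for Wnt9b (SE 0.81).

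Receptors were led by Fzd4, which also binds the non-Wnt ligand norrin and is known for its role in blood vessels. Fzd4 measured 283, 350, 355, 226 and 256 CPM in wild-type and 223, 168 and 265 CPM in NPY-tet mice, a log2 fold change of -0.43 (SE 0.20) with an adjusted p of 0.795 from edgeR. NPY-tet mouse 2 was the lowest and wild-type mice 2 and 3 the highest, while NPY-tet mouse 3 was above wild-type mice 4 and 5. Fzd9 (ENSMUSG00000049551, mm39 chromosome 5, 135277792 to 135280084, minus strand) measured 7.48, 5.01, 7.41, 4.92 and 8.36 CPM in wild-type and 3.06, 4.12 and 5.22 CPM in NPY-tet mice. NPY-tet mouse 3 lay above wild-type mice 2 and 4, so the genotypes overlapped. The log2 fold change was -0.68 (SE 0.26), with an unadjusted p of 0.0221 and an adjusted p of 0.791 from edgeR. It was -1.18 in the rRNA-rich libraries alone and -0.09 in the rRNA-poor libraries alone. Without NPY-tet mouse 1 it was -0.50, with an unadjusted p of 0.0972 from edgeR.

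The co-receptor Lrp5 measured 151, 130, 136, 145 and 150 CPM in wild-type and 118, 123 and 159 CPM in NPY-tet mice. Lrp6 ran from 57.4 to 115 CPM in wild-type and from 72.2 to 90.02 CPM in NPY-tet mice. Fzd7 measured 107, 87.1, 90.3, 66.9 and 97.8 CPM in wild-type and 82.6, 106 and 73.8 CPM in NPY-tet mice. The genotypes overlapped for these receptors, and their log2 fold changes were between -0.09 and -0.01. Fzd10 measured 59.0, 48.3, 45.4, 57.8 and 55.4 CPM in wild-type and 52.4, 55.5 and 57.1 CPM in NPY-tet mice. Fzd8 measured 14.5, 10.9, 11.8, 11.2 and 10.8 CPM in wild-type and 11.05, 12.8 and 12.2 CPM in NPY-tet mice. Fzd10 and Fzd8 were among the steadiest members, with the highest mouse 1.30 and 1.34 times the lowest.

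Fzd6, known for its part in the orientation of hair follicles, measured 38.7, 43.7, 37.3, 36.2 and 59.3 CPM in wild-type and 62.0, 59.6 and 40.4 CPM in NPY-tet mice. Fzd1 (mm39 chromosome 5, 4803839 to 4808035, minus strand) measured 88.1, 65.2, 64.6, 76.3 and 121 CPM in wild-type and 93.5, 104 and 70.8 CPM in NPY-tet mice. Fzd2 measured 39.1, 28.3, 28.3, 29.2 and 48.8 CPM in wild-type and 32.3, 36.2 and 30.4 CPM in NPY-tet mice. Wild-type mouse 5 was the highest for Fzd1 and Fzd2 and NPY-tet mouse 1 for Fzd6, with overlap between the genotypes in each. Fzd3 measured 6.06, 5.49, 6.13, 4.72 and 13.5 CPM in wild-type and 10.7, 9.21 and 7.12 CPM in NPY-tet mice. Fzd5 measured 12.4, 10.3, 8.65, 11.4 and 23.1 CPM in wild-type and 21.8, 19.97 and 9.86 CPM in NPY-tet mice. The values of Fzd3 and Fzd5 were thus highest in wild-type mouse 5 and NPY-tet mice 1 and 2, with log2 fold changes between genotypes of 0.33 and 0.39.

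The inhibitors held the member with the largest fold change. Sfrp2 (ENSMUSG00000027996, mm39 chromosome 3, 83673628 to 83681623, plus strand), which binds Wnt ligands and is made by dermal fibroblasts, measured 26.2, 22.3, 22.3, 60.7 and 16.2 CPM in wild-type and 5.46, 16.9 and 17.6 CPM in NPY-tet mice. Wild-type mouse 4 was the highest and NPY-tet mouse 1 the lowest, and wild-type mouse 5 lay below NPY-tet mice 2 and 3, so the genotypes overlapped. The means were 29.5 ± 17.8 CPM (SD, n = 5) and 13.3 ± 6.82 CPM (SD, n = 3). The log2 fold change was -1.15 (SE 0.56, 95% interval -2.45 to 0.15), with an adjusted p of 0.796 from edgeR. Sfrp2 and Lef1 were the 2 members with a fitted log2 change of at least 1 in size, against 3.79% of all genes tested.

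The Sfrp2 difference was larger when libraries of like ribosomal RNA content were compared. Among rRNA-rich libraries the wild-type mice ran from 16.2 to 26.2 CPM and NPY-tet mouse 1 had 5.46 CPM. Among rRNA-poor libraries wild-type mouse 4 had 60.7 CPM and NPY-tet mice 2 and 3 had 16.9 and 17.6 CPM. NPY-tet mice were thus lower than the wild-type mice within both sets, with no overlap. The same was true of 6 of the 38 members (Sfrp2, Wnt3, Wnt3a, Wnt7b, Wnt10a and Wnt10b) and of 11.4% of all genes tested, and the opposite order was seen for 1 member, Fzd6, and 10.3% of all genes. This separation was therefore common. A fit with the set as a term gave an Sfrp2 log2 fold change of -1.91 (SE 0.19, adjusted p 0.00396 from edgeR), 1 member of 38 where 0.0595% of all genes passed. The rRNA-rich libraries alone gave -1.97 and the rRNA-poor libraries alone -1.82. edgeR called Sfrp2 in each subset, where 1.66% and 1.17% of all genes were called, but 1 arm of each subset is a single mouse with no spread of its own, so these calls add no support. The fit with the set as a term draws on the same comparisons. NPY-tet mouse 1 is alone in the rRNA-rich one and wild-type mouse 4 in the rRNA-poor one. The call of that fit leans on these mice and adds no separate support. The rRNA-poor set also puts wild-type mouse 4, with a hair shaft score (mean log2 CPM) of -1.73, against NPY-tet mice 2 and 3, at 6.43 and 2.60. Genotype and hair cannot be told apart in it. The split was made after the libraries had been seen.

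Other settings made the Sfrp2 difference smaller. Without wild-type mouse 4 the log2 fold change was -0.70, and without NPY-tet mouse 1 it was -0.77. With the hair shaft score as a covariate it was -0.64 (SE 0.57, unadjusted p 0.294 from edgeR), and with the score of 8 white adipocyte markers as a covariate -0.52 (SE 0.72, unadjusted p 0.492 from edgeR). All 8 adipocyte markers had a lower value in NPY-tet mice, and 0 passed the test. Their summed CPM was 4206 to 7346 in wild-type mice and 2565 to 6131 in the NPY-tet group, with none of them at 0. The part of fat in the Sfrp2 values was not tested beyond that covariate.

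NPY-tet mouse 1 was the lowest of the 8 both in Sfrp2 and in the fibroblast markers. The score of the 10 dermal fibroblast markers, their mean log2 CPM, was 6.98 in that mouse and 8.33 to 8.82 in the other 7, with none of the markers at 0. Between genotypes the score was 8.58 ± 0.21 (SD, n = 5) and 8.12 ± 0.99 (SD, n = 3), with a two-sided exact permutation p of 0.393 over the 56 splits of the mice, whose smallest possible p is 0.0179. Of the 10 markers 8 had a lower and 2 a higher value in NPY-tet mice, and 0 passed the test. In NPY-tet mice 2 and 3 the fibroblast score was within or above the wild-type range and Sfrp2 was 16.9 and 17.6 CPM. In wild-type mice 1 to 5 the score was 8.75, 8.33, 8.39, 8.62 and 8.79. Their Sfrp2 was 26.2, 22.3, 22.3, 60.7 and 16.2 CPM, so the highest wild-type score went with the lowest wild-type Sfrp2. In whole skin, fewer cells of a type and less RNA per cell cannot be told apart. The part of fibroblast content in the Sfrp2 values was not tested.

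**Figure D3:**
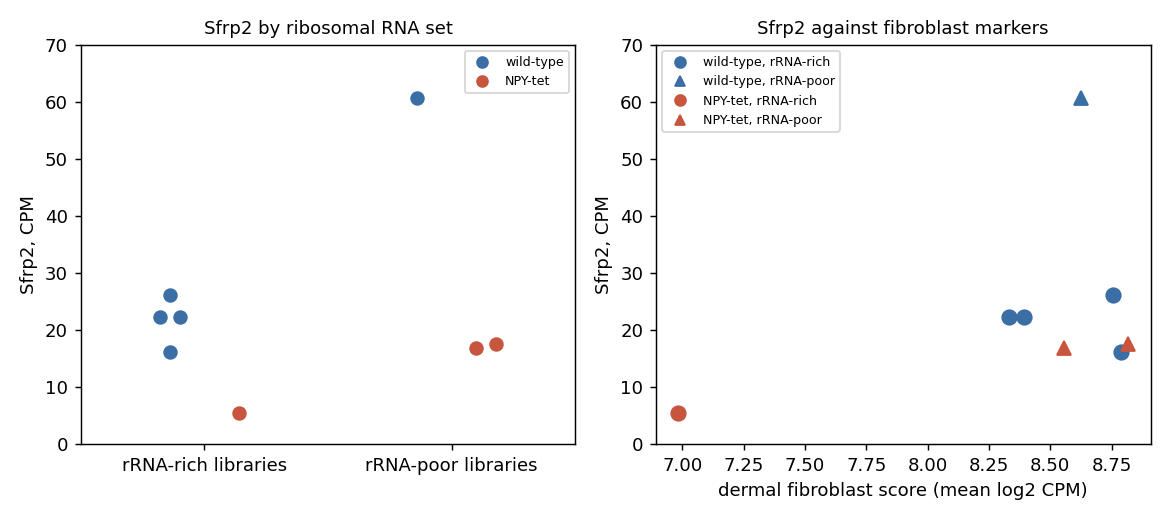
Sfrp2 in CPM by ribosomal RNA set (left) and against the score of the dermal fibroblast markers in mean log2 CPM (right), with 1 point per mouse. Within each set the NPY-tet mice lie below the wild-type mice, and NPY-tet mouse 1, at 5.46 CPM, has the lowest fibroblast score, 6.98.

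Sfrp5, the inhibitor with the highest level, measured 37.2, 41.8, 80.9, 57.1 and 33.0 CPM in wild-type and 83.1, 22.5 and 96.6 CPM in NPY-tet mice. NPY-tet mice thus held both the lowest and the 2 highest values, and the log2 fold change was 0.43 (SE 0.49). Sfrp1 measured 58.2, 50.2, 57.6, 43.3 and 82.4 CPM in wild-type and 34.8, 88.3 and 54.6 CPM in NPY-tet mice. Here too an NPY-tet mouse was the lowest and another the highest, with a log2 fold change of 0.02 (SE 0.29). Sfrp4 measured 9.29, 9.85, 8.72, 11.2 and 3.75 CPM in wild-type and 5.98, 8.67 and 5.07 CPM in NPY-tet mice. Wild-type mouse 5 was the lowest for Sfrp4, and the genotypes overlapped.

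Dkk3, a member of the Dkk family by sequence that does not act on Lrp co-receptors as Dkk1 does, measured 37.5, 27.4, 29.9, 30.7 and 57.1 CPM in wild-type and 41.8, 44.8 and 39.4 CPM in NPY-tet mice. All 3 NPY-tet mice were above wild-type mice 1 to 4 and below wild-type mouse 5. Dkk2, which can raise or lower Wnt signalling, measured 3.23, 3.39, 2.48, 4.78 and 5.99 CPM in wild-type and 9.68, 5.99 and 2.94 CPM in NPY-tet mice. Wif1 (mm39 chromosome 10, 120869865 to 120936555, plus strand), which binds Wnt ligands outside the cell, measured 5.96, 2.53, 2.72, 3.24 and 8.39 CPM in wild-type and 5.87, 11.6 and 3.75 CPM in NPY-tet mice. NPY-tet mouse 1 was the highest for Dkk2 and NPY-tet mouse 2 for Wif1, with overlap between the genotypes in both. The log2 fold changes were 0.20 for Dkk3 (SE 0.22), 0.64 for Dkk2 (SE 0.37) and 0.64 for Wif1 (SE 0.47). Single mice moved all 3 values: Dkk3 was 0.42 without wild-type mouse 5 and 0.11 without wild-type mouse 2, Dkk2 was 0.17 without NPY-tet mouse 1 and 0.98 without NPY-tet mouse 3, and Wif1 was 0.98 without wild-type mouse 5 and 0.08 without NPY-tet mouse 2. With the hair shaft score as a covariate Wif1 was at -0.14 and Dkk3 at -0.14, so that their direction turned.

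Axin2, the feedback gene that reports on beta-catenin signalling, measured 56.5, 51.4, 40.6, 48.8 and 44.8 CPM in wild-type and 50.7, 56.6 and 57.0 CPM in NPY-tet mice. NPY-tet mice 2 and 3 were the highest of the 8 and wild-type mouse 1 stood close below them at 56.5 CPM. The log2 fold change was 0.18 (SE 0.13, 95% interval -0.11 to 0.46). Tcf7 measured 10.3, 8.10, 8.18, 11.7 and 15.6 CPM in wild-type and 10.7, 14.04 and 9.23 CPM in NPY-tet mice, with overlap and a log2 fold change of 0.07 (SE 0.23). Lef1 (ENSMUSG00000027985, mm39 chromosome 3, 130904120 to 131018005, plus strand), the factor of growing hair, measured 2.12, 0.608, 0.268, 0.920 and 11.6 CPM in wild-type and 3.97, 11.6 and 3.26 CPM in NPY-tet mice. It varied 43.4-fold from the lowest mouse to the highest, the widest range of the tested members that had counts in every mouse. Wild-type mouse 5 and NPY-tet mouse 2 were the high ones, and the NPY-tet mice were above 4 of the 5 wild-type mice. Its log2 fold change was 1.03 (SE 1.22, 95% interval -1.88 to 3.94), with an adjusted p of 0.878 from edgeR. Single mice moved it widely, to 2.68 without wild-type mouse 5 and 0.22 without NPY-tet mouse 2. With the hair shaft score as a covariate it was 0.14, and with the white adipocyte score -0.07. The rRNA-rich libraries alone gave 0.14. The rRNA-poor libraries alone gave 3.00, and edgeR called Lef1 there. That subset sets 1 wild-type mouse, with a hair shaft score of -1.73, against NPY-tet mice 2 and 3, with scores of 6.43 and 2.60, so genotype and hair cannot be told apart in it.

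The second comparison asked which members vary with growing hair, since mice differed in it within each genotype. The hair shaft score joins hair keratins such as Krt31 and Krt85 with inner root sheath genes such as Krt25, Krt71 and Tchh. Slopes on it are therefore not particular to shaft cells. The score is the mean log2 CPM of 23 such genes, none of them a member. It was -2.39, -1.73 and -1.21 in wild-type mice 2, 4 and 3, 2.22 in wild-type mouse 1, 2.60 in NPY-tet mouse 3, 5.30 in NPY-tet mouse 1, 6.43 in NPY-tet mouse 2 and 7.19 in wild-type mouse 5. The largest gap between neighbours was 3.43, which is 35.8% of the range of 9.58. Between genotypes the score was 0.818 ± 3.98 (SD, n = 5) in wild-type and 4.77 ± 1.97 (SD, n = 3) in NPY-tet mice, with a two-sided exact permutation p of 0.214.

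In a fit of genotype and the score over all 8 mice, 7 of the 38 members passed an adjusted p of 0.05 with edgeR, and all 7 rose with the score, where 1.62% of all genes tested had a called rise and 0.0216% a called fall. They were Lef1, 4 Frizzled receptors (Fzd1, Fzd2, Fzd3 and Fzd5) and the inhibitors Dkk3 and Wif1. No ligand of 16 passed. At an unadjusted p under 0.05 there were 12 members, 11 of them with a positive slope, against 8.52% of all genes tested. Among markers of further follicle and pigment cells, 5 of 10 hair matrix regulators and 4 of 10 bulge and outer root sheath genes passed the same test. So did 2 of 6 melanocyte genes and 1 of 10 dermal papilla genes. Of the 8 white adipocyte markers 0 passed. Their score in the order of the hair shaft score was 8.90, 9.09, 9.03, 8.61, 8.87, 7.90, 7.75 and 8.40, lowest in the 3 mice with the highest hair shaft scores. The part of each cell type, fat included, in the members' slopes was not tested.

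Lef1 had the steepest slope among the 7, at 0.455 log2 units per unit of the score (SE 0.054, adjusted p 0.000417 from edgeR). In the order of the score its values were 0.608, 0.920, 0.268, 2.12, 3.26, 3.97, 11.6 and 11.6 CPM. The 3 mice with the lowest scores thus all had under 1 CPM, and the other 5 had 2.12 CPM or more. Wif1 followed at 0.208 (SE 0.040, adjusted p 0.0190), with 2.53, 3.24, 2.72, 5.96, 3.75, 5.87, 11.6 and 8.39 CPM in the same order. Its 3 lowest values were those of the same 3 mice.

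Dkk3 had a slope of 0.099 (SE 0.018, adjusted p 0.0134 from edgeR), with 27.4, 30.7, 29.9, 37.5, 39.4, 41.8, 44.8 and 57.1 CPM in the order of the score. Except between wild-type mice 4 and 3, each mouse with a higher score had a higher Dkk3 value. Among the receptors the slopes were 0.141 for Fzd5 (SE 0.031, adjusted p 0.0418), 0.136 for Fzd3 (SE 0.029, adjusted p 0.0382), 0.096 for Fzd1 (SE 0.019, adjusted p 0.0256) and 0.084 for Fzd2 (SE 0.018, adjusted p 0.0436), all from edgeR. Over the range of the score these slopes come to log2 differences of 1.35 for Fzd5, 1.31 for Fzd3, 0.92 for Fzd1, 0.81 for Fzd2, 0.95 for Dkk3, 2.00 for Wif1 and 4.36 for Lef1. Axin2 had a slope of -0.004 (SE 0.022) and Tcf7 one of 0.086 (SE 0.028, adjusted p 0.288). The ligand Wnt11 had a slope of 0.091 (SE 0.023, adjusted p 0.104 from edgeR) and was the member that DESeq2 added, for 8 members called where 2.42% of all genes were.

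**Figure D4:**
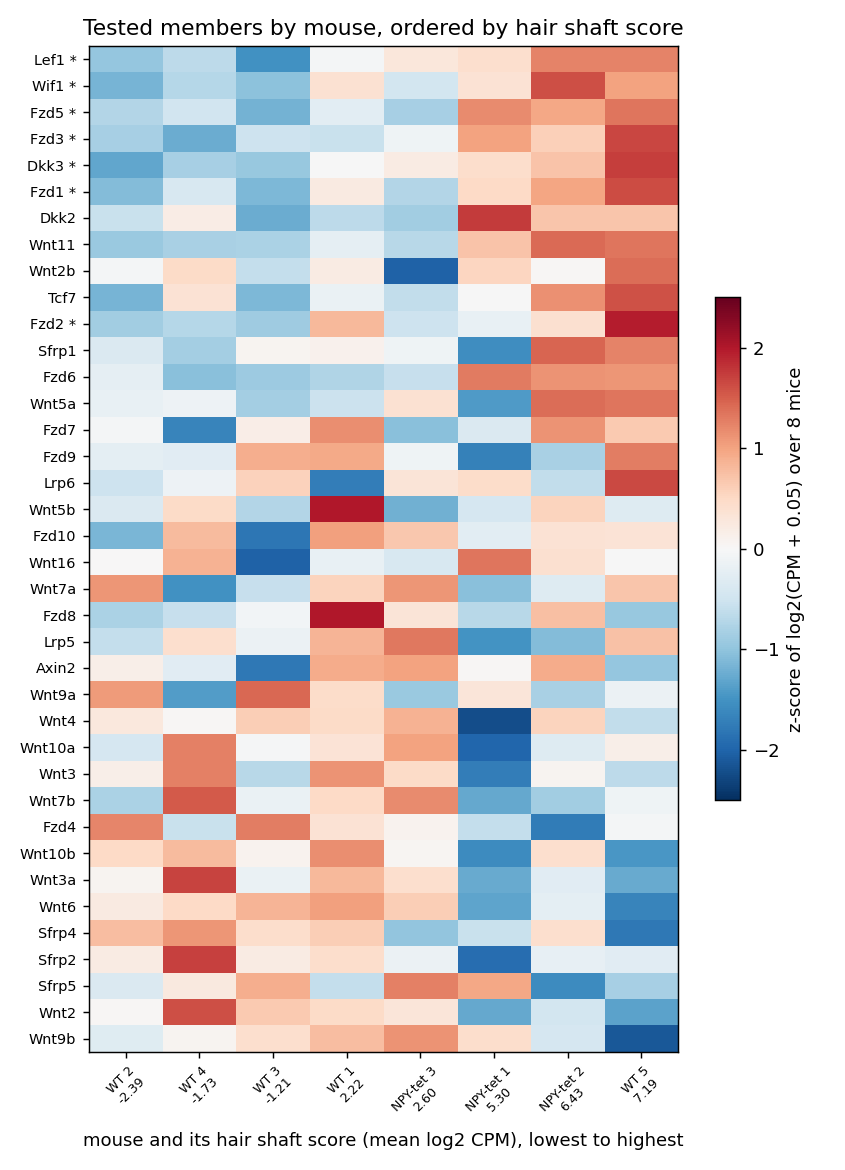
Members by mouse as a z-score over the 8 mice of log2(CPM + 0.05) (red high, blue low), with the mice in the order of the hair shaft score from -2.39 to 7.19 and an asterisk on the 7 members called against it. The 7 are low in the 3 mice at the left and high in wild-type mouse 5 at the right.

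**Figure D5:**
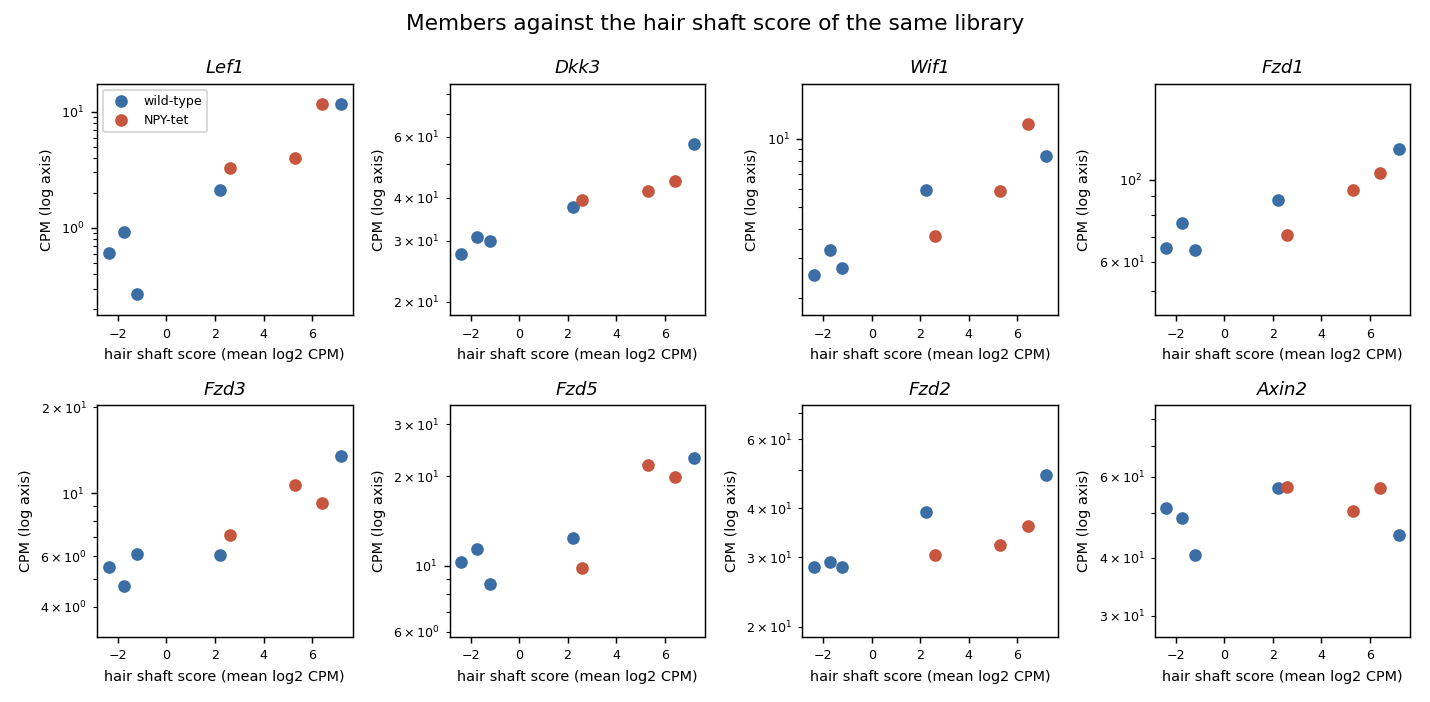
CPM (log axis) of members against the hair shaft score in mean log2 CPM, with 1 point per mouse coloured by genotype. Lef1 values rise from under 1 CPM in the 3 lowest-scoring mice to 11.6 CPM in the 2 highest, and Axin2, with a slope of -0.004, does not.

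The calls against the score rested on a few mice. Without wild-type mouse 5, the highest in the score, 0 members passed with edgeR (0.187% of all genes). In that fit 5 members were at an unadjusted p under 0.05. Without the 2 mice farthest from the median score, wild-type mice 2 and 5, 0 passed (0.156% of all genes). Again 5 members were at an unadjusted p under 0.05. The share of all genes at that unadjusted level is not given for these fits. Without wild-type mouse 2 the call of Lef1 was left (1.34% of all genes). There were 4, 3 and 4 members past the threshold without wild-type mouse 1, wild-type mouse 3 and NPY-tet mouse 2. The share of all genes called is not given for those fits, so their counts are no result about the members. The slope of Lef1 was 0.411 without wild-type mouse 5 (unadjusted p 0.00515, adjusted p 0.967 from edgeR). Without the farthest 2 it was 0.429 (unadjusted p 0.0137, adjusted p 0.842 from edgeR). Without wild-type mouse 5 the slope of Fzd3 fell to 0.0724 (unadjusted p 0.259 from edgeR), and that of Wif1 was 0.315. Without the farthest 2 the slope of Dkk3 was 0.0648, against 0.099 with all mice. When the fit also held the ribosomal RNA set, 4 members passed (Fzd1, Dkk3, Wif1 and Lef1, 1.71% of all genes), and in the 5 rRNA-rich libraries alone 6 passed (2.41% of all genes), while the 3 rRNA-poor libraries are too few for this fit. NPY-tet mouse 1 is the only NPY-tet mouse in the rRNA-rich set, and the genotype term takes it up. The slopes in that set therefore come from wild-type mice 1, 2, 3 and 5 alone. Wild-type mouse 5 has the highest score of these, 7.19, against 2.22 in wild-type mouse 1, the next. The calls in the rRNA-rich set thus lean on wild-type mouse 5 and add no separate support. Over 18 alternatives the slopes of the 7 kept their sign.

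The rest of the pathway was described by 56 other genes, from ligand secretion (Porcn, Wls) through R-spondins and the destruction complex to target genes, of which 55 were tested. None passed the genotype test with edgeR (0 also at an unadjusted p under 0.05), 36 had a positive and 19 a negative log2 fold change, and the median was 0.06. The 6 with the smallest p above 1 CPM were Dkkl1, Tcf7l1, Vangl2, Ryk, Rspo2 and Csnk1a1. Tcf7l1, a TCF factor that mostly represses targets, was at 31.8 ± 6.31 CPM (SD, n = 5) in wild-type and 25.0 ± 5.96 CPM (SD, n = 3) in NPY-tet mice. Vangl2, a planar polarity gene, was at 29.5 ± 3.94 and 37.3 ± 12.4 CPM. Ryk, a Wnt receptor outside the Frizzled family, was at 87.5 ± 7.90 and 101 ± 10.3 CPM, and Csnk1a1, a kinase of the destruction complex, at 248 ± 18.5 and 284 ± 26.9 CPM. Rspo2, a secreted amplifier of Wnt signals, was at 1.27 ± 0.301 and 0.803 ± 0.451 CPM, and Dkkl1, a relative of the Dkk genes, at 59.9 ± 11.3 and 46.5 ± 12.6 CPM. Of these 55 genes 0 passed the test against the hair shaft score, with 11 at an unadjusted p under 0.05. Over all genes tested these shares were 1.62% for called rises, 0.0216% for called falls and 8.52% at an unadjusted p under 0.05.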

How the data were processed

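RNA of whole skin from 5 wild-type and 3 NPY-tet mice was selected with poly-T and sequenced without strand information, per the labels. The authors deposited unnormalized read counts for each Ensembl gene. They also deposited FPKM, whose values equal counts divided by gene length and by 1 constant per library that is not the column total. The submitters' processing notes list the tools without their roles: featureCounts 1.5.0-p3 for instance, with HISAT2 2.0.5, CASAVA, DESeq2 1.20.0 and the genome build mm39. Columns were matched to mice by the sample titles. For samples 3 to 8 the library names in the descriptions number the mouse 1 higher than the titles do, and the genotype is the same in both.

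Counts were tested with edgeR 4.0.16 in R 4.3.3 (filterByExpr, TMM, robust quasi-likelihood F-test, two-sided, Benjamini-Hochberg over 18495 genes). SE is the size of the log2 fold change over the square root of F, and scores use log2 CPM with a prior count of 2. edgeR estimated a common coefficient of biological variation of 0.318. The floor of 3 counts for a gene at 0 covers counting error only. The rRNA-rich and rRNA-poor sets were split at 1% of counts. Values per mouse were given for members with a mean of at least 1 FPKM, up to 30 by p, and for any past a threshold. Promoter sequences come from RefSeq on GRCm38.p6 and were not placed on mm39. Alternatives were other size factors and filters, DESeq2 1.42.0, limma 3.58.1, covariates, subsets and each library left out. The procedures were tested on simulated data. The members and lists were chosen with earlier results of these data known.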

Additional observations from a re-analysis of the deposited data

Results flagged for a closer look

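Within the 5 wild-type mice, 7 of the 38 tested members had a mouse farther from the others than Dixon's 95% critical value allows, a distance that chance gives in about 1 in 20 groups. That is 18.4% of the members, and the same measure marked 7.53% of all 18495 genes tested. Wild-type mouse 5 was marked by this measure as the high mouse in 13.2% of the members and in 3.37% of all genes tested. Wild-type mouse 5 was the high one for Lef1 (11.6 CPM, next highest 2.12), Fzd5 (23.1, next 12.4), Fzd3 (13.5, next 6.13), Wnt5a (29.8, next 21.7) and Wnt11 (19.0, next 13.1). That mouse also had the highest hair shaft score, 7.19. Wild-type mouse 4 was high for Sfrp2, at 60.7 CPM against 26.2 in the next, and is the wild-type mouse of the rRNA-poor set. Wild-type mouse 1 was high for Fzd8, at 14.5 CPM against 11.8 in the next.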

How the results depend on the processing

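The count of members called between genotypes was 1 with a ribosomal RNA covariate (Sfrp2), where 0.0595% of all genes passed. It was 0 in the other settings that keep more than 1 mouse per genotype. In either rRNA subset alone 1 arm is a single mouse, so calls there add no support. The count at an unadjusted p under 0.05, 1 as reported, was 2 with upper-quartile factors, 3 with no filter, 3 with DESeq2, 6 with limma-voom, 2 with limma on log2 FPKM + 1, 6 with the ribosomal RNA covariate and in either subset alone, 2 with the hair, 0 with the muscle and 2 with the adipocyte covariate, and 0 to 13 with a library left out. With the replicate number as a block, wild-type mice 4 and 5 are each alone in theirs. Genotype and score are then compared in the other mice only. The replicate block gave 10 members at an unadjusted p under 0.05 and 0 hair slopes called. For these settings, DESeq2 apart, the share of all genes at an unadjusted p under 0.05 is not given. The counts at that level therefore have no background to be set against. Same-numbered mice did not deviate together in every pair (correlations of -0.0439, -0.105 and 0.298), so the numbers were not taken to pair mice. Of the other pathway genes 0 were called in the settings that keep more than 1 mouse per genotype. The hair slopes called, 7 as reported, were 4 with the ribosomal RNA covariate (1.71% of all genes). They were 0 without the 2 mice farthest from the median score (0.156% of all genes). With a library left out they were 0 to 7. The share of all genes called is given only without wild-type mouse 5 (0.187%) and without wild-type mouse 2 (1.34%). The members' median log2 fold change ran from -0.12 to 0.08. Of the members, 31 changed the sign of their fold change in at least 1 alternative and 7 did not (Axin2 and Wnt9b higher; Wnt3, Wnt5b, Fzd9, Fzd4 and Sfrp2 lower). The causes of these shifts were not tested. The 5 untested members had counts of 0 to 29 per library, and whether depth or a lack of expression lay behind this was not tested.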
